A study of Rattus norvegicus with 24 samples.

Results

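This report follows 46 genes of the early secretory pathway in rat liver, of 15319 gene IDs counted. They were chosen because Uso1, Ssr3 and Bet1 had the smallest p-values among the genes higher in PCB 52-exposed than in sham males, and the list was then filled with the protein translocation channel, signal peptidase, the chaperones of the endoplasmic reticulum (ER) and the vesicle coats between ER and Golgi. The exposure contrast in males was therefore used in the choice and is only described. All 46 genes had rows in both count tables and passed the low-count filter in every fit, with between 139 (Spcs1) and 14588 (P4hb) counts in a library.

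Livers came from 24 Sprague-Dawley rats, an outbred stock with no engineered allele, in 4 groups of 6 animals: sham females, PCB 52-exposed females, sham males and PCB 52-exposed males. PCB 52 is a polychlorinated biphenyl, a persistent industrial chemical that is volatile enough to be inhaled. Inhalation was by nose only, in daily sessions of 4 hours for 28 days, with air drawn over PCB 52-coated beads at 12 L/min. All rats were 28 days old on arrival, had 8 days to acclimate and were trained in the apparatus. Females were 42 and males 39 days old when exposure began. Sex, the age at the start and the count table (1 per sex) therefore cannot be told apart. The labels do not describe what the sham animals breathed.

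Proteins for secretion enter the ER through the Sec61 channel, lose their signal peptide to signal peptidase, and are folded by chaperones and by enzymes that form disulfide bonds. COPII-coated vesicles carry them towards the Golgi, and COPI-coated vesicles return escaped ER proteins and receptors. Hepatocytes secrete albumin, clotting factors and lipoproteins in bulk. When unfolded proteins build up in the ER, the sensors of the unfolded protein response raise chaperone genes through transcription factors such as XBP1, ATF6 and ATF4.

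Libraries held between 6994832 and 9185511 counts, and the 46 genes took between 0.855% and 1.15% of them. Hepatocyte markers were high, with Alb (albumin) between 87590 and 139100 CPM (a gene's counts scaled to a library total of 1000000 after TMM normalization). Summed levels of the 7 measured plasma and B cell markers stayed between 5.64 and 33.35 CPM, mostly from Derl3, and Tnfrsf17 had a median of 0. In whole tissue, fewer cells of a type and less RNA per cell cannot be told apart. The leading axis of variation within groups, computed without the 46 genes, held 16.7% of the variance in females and 19.8% in males, and the labels do not name it. It is called the library axis below.

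Some of these genes differed between females and males (the plot of sex differences shows each gene). Point estimates of signal peptidase subunits and of most ER chaperones were lower in females, and those of most COPI coat and retrieval genes were higher, in sham and in exposed animals alike. In sham animals 15 of 46 genes passed at an adjusted p under 0.05, 6 higher and 9 lower in females, where 20.3% of the 10535 genes tested passed (10.7% higher, 9.62% lower). In exposed animals 11 of 46 passed, 4 higher and 7 lower, against 19.9% of all genes (10.1% higher, 9.73% lower). Log2 folds were over 0 for 21 of 46 genes in sham and 19 in exposed animals, against 49.5% and 49.1% of all genes. The sham share of calls was above that of all genes and the exposed share close to it. The 46 genes also varied less within groups (median SD of log2 CPM 0.15) than all genes tested (0.23). These shares therefore do not set like against like. With limma-voom 25 of 46 passed in sham animals, 8 higher and 17 lower, against 12.6% and 11.9% of all genes. All adjusted p-values here are from edgeR's quasi-likelihood test with Benjamini-Hochberg adjustment over all genes. Sham and exposed comparisons share no animal, but they come from 1 fit and share its estimate of spread. Each also shares its 6 males with the contrast that prompted the list.

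Called in both comparisons were 8 genes: Spcs3, Sec11c, Sec23b, Pdia6 and Dnajc3, all lower in females, and Kdelr2, Copa and Pdia4, all higher. Over all genes tested 7.92% were higher in females in both comparisons and 7.19% were lower in both. The calls for Spcs3, Sec11c, Sec23b, Pdia4, Pdia6 and Dnajc3 held under each alternative setting and with each library left out. Kdelr2 lost its call in exposed animals without PCB 52 male replicate 5 (adjusted p = 0.0563). Copa lost its call in both comparisons without the low-count filter, and with a library left out its call held in 8 of 12 fits in sham and 4 of 12 in exposed animals.

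Markers of other cell types moved with sex. Of 10 Kupffer cell and macrophage markers 8 were higher in sham and 7 in exposed females, and their summed level ran from 727 to 896 CPM in sham females, 586 to 670 CPM in sham males, 646 to 825 CPM in exposed females and 563 to 680 CPM in exposed males. Of 2 cholangiocyte markers tested, Epcam was lower in females in both comparisons. The other had a log2 fold of 0.24 in sham and −0.045 in exposed animals. Of 6 endothelial markers Vwf was lower in sham females. However, 5 of those 6 had log2 folds over 0 in each comparison, with medians of 0.15 in both. The summed level of the 6 cholangiocyte markers measured ran from 10.6 to 18.5 CPM in sham females and from 16.6 to 25.1 CPM in sham males. Of 10 hepatocyte markers 2 were lower in females in both comparisons (Apoa1 and Serpina1). Of 11 stellate cell and fibroblast markers 0 passed in either comparison. Their log2 folds were under 0 for 10 in sham (median −0.15) and 6 in exposed animals (median −0.03). Of 3 erythroid markers tested 0 passed, with 2 over 0 in sham and 1 in exposed animals. The part of these markers in the sex differences was not tested.

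**Figure D1:**
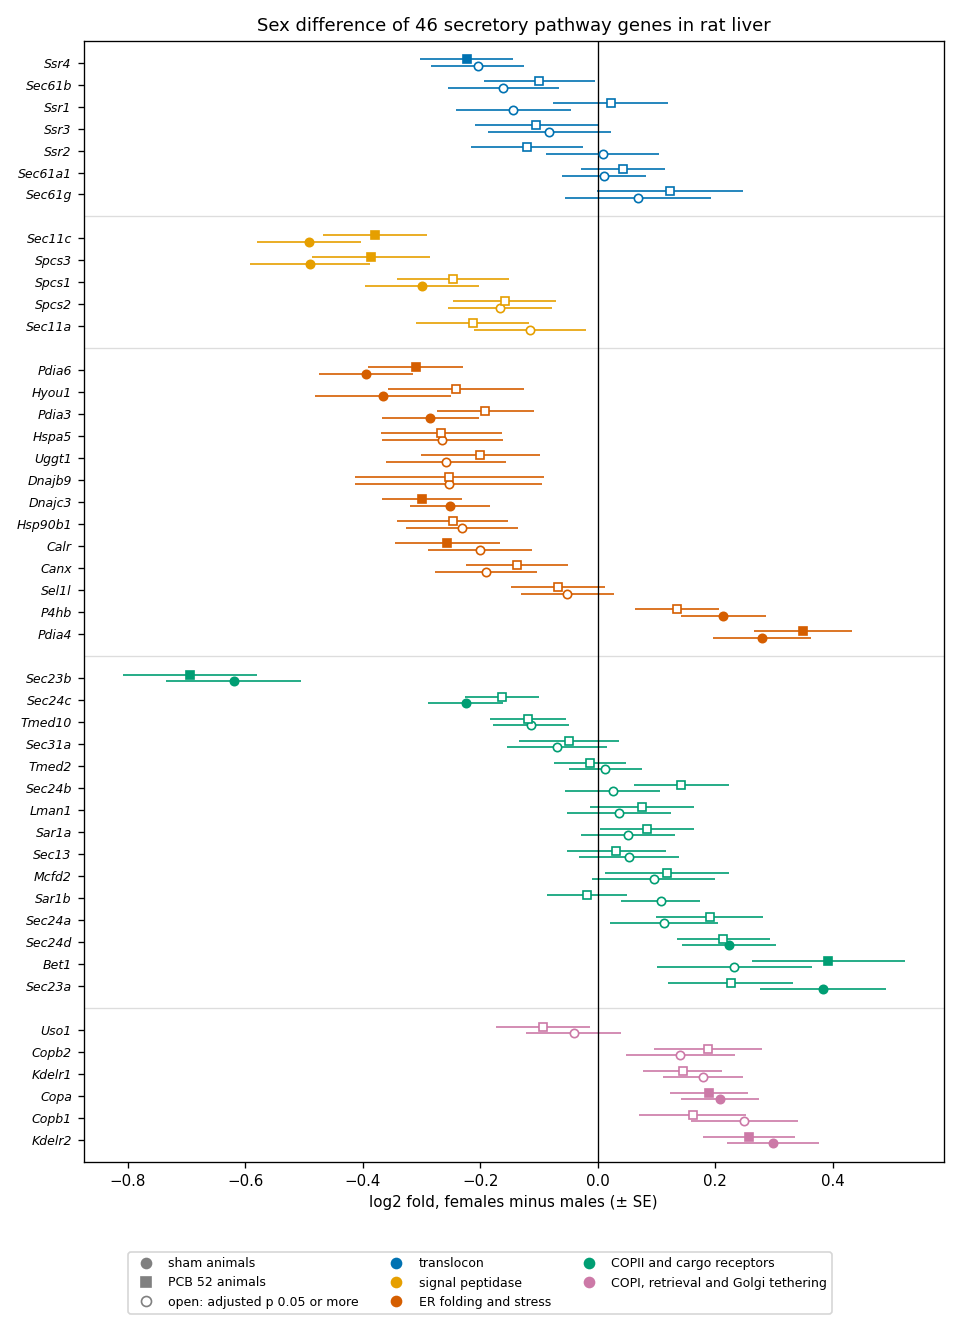
Log2 fold change, females minus males, of the 46 genes (horizontal axis; bars are ± SE from the edgeR fit of 24 libraries), in sham animals (circles) and PCB 52 animals (squares), grouped by role. Filled symbols passed at an adjusted p under 0.05. All 5 signal peptidase genes and 11 of 13 ER folding genes lie below 0 in both comparisons, and 5 of 6 COPI and Golgi genes lie above 0.

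Translocon genes, the Sec61 channel and the translocon-associated proteins Ssr1 to Ssr4, differed little by sex. In sham animals 0 of 7 passed by edgeR, with 1 of 7 at an unadjusted p under 0.05 (Ssr4, in the lower direction, where 14.6% of all genes stood), and their median log2 fold was −0.08, where the median of all genes tested was −0.00. In exposed animals Ssr4 was the single gene called. It ran from 72.7 to 90.8 CPM (median 85.2) in exposed females and from 86.2 to 111 CPM (median 97.7) in exposed males, which overlap. Its log2 fold was −0.22 ± 0.08 (SE, n = 6 per group, adjusted p = 0.0436), and the call held in 4 of the 12 fits that left out a library. Sec61a1, the pore subunit, stood at 286 CPM in sham females and 284 CPM in sham males, a log2 fold of 0.01 ± 0.07. Its small partner Sec61b had −0.16 ± 0.09 in sham and −0.10 ± 0.09 in exposed animals. Ssr3 had −0.08 ± 0.11 and −0.10 ± 0.10.

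Signal peptidase, the ER complex that cuts signal peptides from nascent proteins, was lower in females in all 5 subunits by point estimate. The median log2 fold of the 5 was −0.30 in sham and −0.25 in exposed animals, and 3 subunits passed in sham (Spcs1, Spcs3 and Sec11c) and 2 in exposed animals (Spcs3 and Sec11c). Spcs3, a subunit that stabilizes the complex, ran from 33.6 to 45.5 CPM (median 36.6) in sham females and from 48.8 to 59.0 CPM (median 53.6) in sham males. Those 2 groups did not overlap, as was so for 5.35% of all genes in the lower direction. The log2 fold was −0.49 ± 0.10 (adjusted p = 5.69e-04), and −0.39 ± 0.10 (adjusted p = 0.00553) in exposed animals, whose ranges of 40.9 to 57.5 and 54.8 to 77.6 CPM overlapped.

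Sec11c, a catalytic subunit, showed the same order. It ran from 19.1 to 26.2 CPM (median 21.6) in sham females against 27.7 to 33.3 CPM (median 31.1) in sham males, without overlap. Exposed females ran from 21.01 to 27.2 CPM (median 22.6) and exposed males from 25.6 to 34.5 CPM (median 30.2). The log2 fold was −0.49 ± 0.09 (adjusted p = 1.04e-04) in sham and −0.38 ± 0.09 (adjusted p = 0.00195) in exposed animals. Sec11a, the alternative catalytic subunit, had −0.12 ± 0.10 and −0.21 ± 0.10 and did not pass. Spcs2 had −0.17 ± 0.09 and −0.16 ± 0.09 and did not pass. Spcs1 passed in sham animals (−0.30 ± 0.10, adjusted p = 0.0252) but not without sham male replicate 4 or 5 or sham female replicate 5 or 6.

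Among the 13 genes of ER folding and stress, 11 had lower point estimates in females in both comparisons, with medians of −0.25 in sham and −0.24 in exposed animals. Promoters of several of these genes carry known response elements, and those are shown first because they mark the genes through which the unfolded protein response is usually read. The ER stress response element (ERSE: CCAAT, 9 bases of any kind, then CCACG; searched on both strands) was found in 5 of the 39 genes with a RefSeq promoter in the GRCr8 build (12.8%), against 22 of 33469 promoters of the same length (0.0657%). The windows run from 250 bases before to 50 after the start site. They are Hspa5 (chr3:38452766-38453065, plus strand), Hsp90b1 (chr7:23012244-23012543, minus), Canx (chr10:35157808-35158107, minus), Dnajc3 (chr15:102432417-102432716, plus) and Calr (chr19:40213117-40213416, plus). Hyou1 (chr8:53602632-53602931, plus) alone held the variant ERSE-II (ATTGG, any base, then CCACG), which is in 17 promoters of all (0.0508%). The stretches below read 5′ to 3′ on the gene's strand, with the matched element in capitals.
Hspa5: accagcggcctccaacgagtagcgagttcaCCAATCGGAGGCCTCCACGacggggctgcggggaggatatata
Hsp90b1: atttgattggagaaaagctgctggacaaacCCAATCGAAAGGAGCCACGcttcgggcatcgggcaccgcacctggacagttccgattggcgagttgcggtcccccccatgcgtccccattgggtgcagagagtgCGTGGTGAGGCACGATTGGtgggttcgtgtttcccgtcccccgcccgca
Canx: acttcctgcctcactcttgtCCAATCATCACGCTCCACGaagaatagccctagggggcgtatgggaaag
Dnajc3: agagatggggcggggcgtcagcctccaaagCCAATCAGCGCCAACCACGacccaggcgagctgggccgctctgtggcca
Calr: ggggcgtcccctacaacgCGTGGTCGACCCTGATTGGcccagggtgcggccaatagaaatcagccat
Hyou1: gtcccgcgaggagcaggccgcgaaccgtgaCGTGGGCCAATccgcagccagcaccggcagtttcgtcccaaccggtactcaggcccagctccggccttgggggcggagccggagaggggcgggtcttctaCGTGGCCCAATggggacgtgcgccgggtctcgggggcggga

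The element lay 43 bases before the start site in Hspa5, 176 and 72 bases before it in Hsp90b1, 230 in Canx, 133 in Dnajc3 and 232 in Calr, counted to its first base. In Calr, Hyou1 and the second copy of Hsp90b1 the match is on the opposite strand. The core of a further element, TGACGTG, was in 7 of the 39 promoters (17.9%: Copa, Copb1, Copb2, Hspa5, Hyou1, Sec23a and Ssr4), against 605 of all (1.81%). In Hyou1 it overlaps the first ERSE-II copy. A match describes letters only. The list was filled with ER chaperones, several of them known to carry such elements, so these shares are no test.

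The 5 genes with an ERSE all had lower point estimates in females, and Dnajc3 passed in both comparisons. Dnajc3 encodes P58IPK, a cochaperone of BiP that also restrains the kinase PERK. Its level ran from 184 to 224 CPM (median 206) in sham females and from 235 to 262 CPM (median 240) in sham males. Exposed females ran from 193 to 247 CPM (median 220) and exposed males from 259 to 289 CPM (median 273). Females and males overlapped in neither comparison, as was so for 4.68% of all genes in the lower direction among exposed animals. Log2 folds were −0.25 ± 0.07 (adjusted p = 0.00781) and −0.30 ± 0.07 (adjusted p = 0.00159).

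Hspa5 encodes BiP, the central ER chaperone. It ran from 507 to 693 CPM (median 574) in sham females and from 663 to 807 CPM (median 693) in sham males, and the ranges overlapped. Exposed females ran from 566 to 859 CPM (median 651) and exposed males from 687 to 961 CPM (median 777). The log2 fold was −0.26 ± 0.10 in sham (adjusted p = 0.0699) and −0.27 ± 0.10 in exposed animals (adjusted p = 0.0696), so neither passed. Hsp90b1, the ER member of the HSP90 family, had −0.23 ± 0.09 and −0.25 ± 0.09 (adjusted p = 0.0867 and 0.0667). Canx, the membrane lectin chaperone calnexin, had −0.19 ± 0.09 and −0.14 ± 0.09 and did not pass.

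Calr, calreticulin, the soluble partner of calnexin, passed in exposed animals (−0.26 ± 0.09, adjusted p = 0.0404). It ran from 698 to 976 CPM (median 844) in exposed females and from 860 to 1173 CPM (median 1013) in exposed males, and the call held in 4 of 12 fits with a library left out and in 3 of 7 other settings. It was lost with consecutive animals as a block, with limma-voom, without the low-count filter and without animals 13 to 16. In sham animals it had −0.20 ± 0.09 (adjusted p = 0.120). Hyou1, a nucleotide exchange factor for BiP, passed in sham animals (127 ± 17.7 CPM in females, 163 ± 18.2 CPM in males, SD; log2 fold −0.37 ± 0.12, adjusted p = 0.0235) and had −0.24 ± 0.12 (adjusted p = 0.156) in exposed animals. Its sham call was lost without sham male replicate 2 or 3, sham female replicate 2, 4 or 5, or with consecutive animals as a block.

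The protein disulfide isomerases, which form and shuffle disulfide bonds, went in both directions. Pdia6 ran from 262 to 322 CPM (median 280) in sham females and from 329 to 402 CPM (median 375) in sham males, without overlap. In sham animals 5.35% of all genes were free of overlap in the lower direction. Exposed females ran from 270.2 to 362.2 CPM and exposed males from 344.1 to 425.3 CPM, which overlap. The log2 fold of Pdia6 was −0.39 ± 0.08 (adjusted p = 4.63e-04) in sham animals, and −0.31 ± 0.08 (adjusted p = 0.00517) in exposed animals. Pdia4 went the other way. It ran from 328 to 404 CPM (median 377) in sham females against 289 to 327 CPM (median 305) in sham males, and from 387 to 506 CPM (median 406) in exposed females against 268 to 379 CPM (median 336) in exposed males. The sexes overlapped in neither comparison, as was so for 6.10% and 5.14% of all genes in the higher direction, and log2 folds were 0.28 ± 0.08 (adjusted p = 0.0155) and 0.35 ± 0.08 (adjusted p = 0.00247).

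Pdia3, the isomerase that works with calnexin and calreticulin, was lower in sham females (508 ± 42.8 against 619 ± 27.1 CPM, log2 fold −0.28 ± 0.08, adjusted p = 0.0123) and had −0.19 ± 0.08 (adjusted p = 0.108) in exposed animals. P4hb, the prototype isomerase and also a subunit of prolyl 4-hydroxylase, was higher in sham females (1500.0 ± 108.9 against 1293 ± 78.4 CPM, log2 fold 0.21 ± 0.07, adjusted p = 0.0314) and had 0.14 ± 0.07 in exposed animals. The P4hb call held in 5 of 12 fits with a library left out. Uggt1, the glucosyltransferase that senses folding of glycoproteins, had −0.26 ± 0.10 and −0.20 ± 0.10. Dnajb9, another BiP cochaperone, had −0.25 ± 0.16 and −0.25 ± 0.16, and Sel1l, the scaffold of an ER degradation ligase, had −0.05 ± 0.08 and −0.07 ± 0.08. None of those 3 passed.

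COPII genes went in both directions, including paralogs. SEC23 and SEC24 proteins form the inner coat, and SEC23 stimulates GTP hydrolysis by the GTPase SAR1. Sec23b was the lowest of the 46 genes in females relative to males. It ran from 28.6 to 37.5 CPM (median 33.7) in sham females and from 46.7 to 54.9 CPM (median 52.4) in sham males, without overlap. Exposed females ran from 26.8 to 40.8 CPM (median 34.5) and exposed males from 40.6 to 75.0 CPM (median 54.1), which overlap slightly. Log2 folds were −0.62 ± 0.11 (adjusted p = 1.47e-04) and −0.69 ± 0.11 (adjusted p = 3.0e-05).

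Its paralog Sec23a was higher in sham females, from 50.4 to 85.2 CPM (median 70.2) against 48.9 to 66.9 CPM (median 53.0) in males. The ranges overlapped, and the log2 fold was 0.38 ± 0.11 (adjusted p = 0.00948). In exposed animals it was 0.23 ± 0.11 (adjusted p = 0.147). Sec24d was higher in sham females (122 ± 7.09 against 105 ± 11.3 CPM, log2 fold 0.22 ± 0.08, adjusted p = 0.0451), a call that held in 4 of 12 fits with a library left out, and had 0.21 ± 0.08 (adjusted p = 0.0572) in exposed animals. Sec24c was lower in sham females (118 ± 8.07 against 138 ± 9.07 CPM, log2 fold −0.22 ± 0.06, adjusted p = 0.0102) and had −0.16 ± 0.06 (adjusted p = 0.0724) in exposed animals. How reads matching paralogs were assigned is not given in the sources used here.

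Bet1, a SNARE of ER-to-Golgi vesicles, was called in exposed animals (67.3 ± 16.9 CPM in females, 51.2 ± 6.10 CPM in males, log2 fold 0.39 ± 0.13, adjusted p = 0.0306), with 0.23 ± 0.13 (adjusted p = 0.243) in sham animals. The difference between these values is also the difference between the female and male responses to exposure, which did not pass for any of the 46 genes, and the exposed call held in 5 of 12 fits with a library left out. Lman1 and Mcfd2 form the receptor that exports clotting factors V and VIII. They had 0.04 ± 0.09 and 0.10 ± 0.11 in sham animals. Sar1b, the GTPase needed for lipoprotein export, had 0.11 ± 0.07, and Tmed10, a p24 cargo receptor, −0.11 ± 0.06.

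Of 6 COPI, retrieval and tethering genes 5 had log2 folds over 0, with medians of 0.19 in sham and 0.17 in exposed animals. Kdelr2, a receptor that returns chaperones carrying the KDEL signal to the ER, ran from 76.0 to 92.0 CPM (median 85.5) in sham females and from 56.5 to 73.7 CPM (median 71.0) in sham males, without overlap. In sham animals 6.10% of all genes were free of overlap in the higher direction. Exposed females ran from 81.02 to 98.15 CPM and exposed males from 66.06 to 83.93 CPM, which overlap. Kdelr2 log2 folds were 0.30 ± 0.08 (adjusted p = 0.00563) and 0.26 ± 0.08 (adjusted p = 0.0173). Copa, the alpha subunit of the COPI coat, ran from 157 to 195 CPM (median 179) against 140 to 165 CPM (median 156) in sham animals, and from 188 to 202 CPM (median 195) against 160 to 197 CPM (median 166) in exposed animals, with overlap in both. Its log2 folds were 0.21 ± 0.07 (adjusted p = 0.0236) and 0.19 ± 0.07 (adjusted p = 0.0409). Uso1, the tether p115 that captures vesicles at the Golgi, was the 1 gene of the 6 below 0 (−0.04 ± 0.08 and −0.09 ± 0.08).

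**Figure D2:**
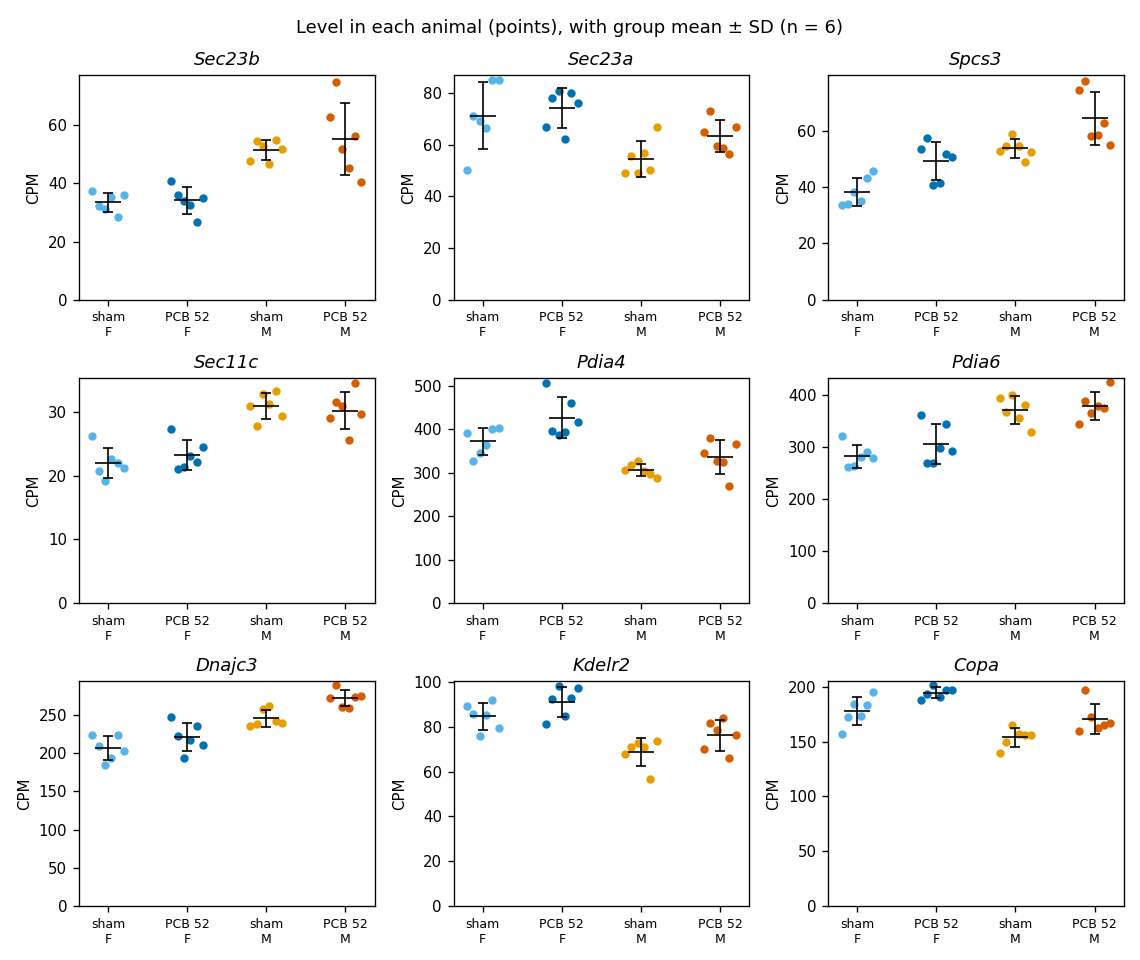
Level in each animal (points, CPM on a linear axis from 0) of the 8 genes called in both sex comparisons and of Sec23a, by group, with the mean and SD (bars, n = 6). Sec23b sits between 26.8 and 40.8 CPM in females and between 40.6 and 75.0 CPM in males, and Pdia4 lies higher in females in both comparisons.

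Genes around the 46 were read from 8 pathway lists, of which 106 genes passed the filter. In sham animals 13 were higher and 15 lower in females, and in exposed animals 10 and 19. Over all genes 10.7% were higher and 9.62% lower in sham females, and 10.1% and 9.73% in exposed females. Xbp1, the transcription factor of the IRE1 branch that drives chaperone and translocation genes, had a log2 fold larger in size than any of the 46 genes. It ran from 122 to 221 CPM (median 170) in sham females and from 339 to 711 CPM (median 579) in sham males. Exposed females ran from 132 to 260 CPM (median 198) and exposed males from 437 to 622 CPM (median 515). No female library reached a male one, and log2 folds were −1.68 ± 0.18 (adjusted p = 9.96e-08) and −1.41 ± 0.18 (adjusted p = 1.38e-06). Gene counts do not separate the spliced form of Xbp1 from the unspliced one.

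Creb3l3, a liver factor activated by cleavage, was higher in females (0.55 ± 0.11, adjusted p = 4.86e-04, and 0.40 ± 0.11, adjusted p = 0.00929). Ddit3, which encodes CHOP, and Atf4 were higher in sham females (0.46 ± 0.11, adjusted p = 0.00370, and 0.37 ± 0.12, adjusted p = 0.0259) and had 0.10 ± 0.11 and 0.23 ± 0.12 in exposed animals. Atf6 had −0.03 ± 0.11 and −0.01 ± 0.11. Of 10 genes in that list, 4 were higher and 1 lower in sham females, and 2 were higher and 2 lower (Xbp1 and Trib3) in exposed females.

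The signal recognition particle and its receptor bring ribosomes to the translocon. In a list of these and other translocation genes, 5 of 13 were lower in females in each comparison with 0 higher. They were Srp14, Srp54a, Srpra, Srprb and Sec63 in sham animals, and Srp54a, Srpra, Srprb, Sec62 and Sec63 in exposed animals. Over all genes 9.62% were lower in sham and 9.73% in exposed females. Srprb, a subunit of the receptor, ran from 48.0 to 60.5 CPM (median 51.0) in sham females and from 73.7 to 84.9 CPM (median 77.6) in sham males, a log2 fold of −0.59 ± 0.07 (adjusted p = 1.76e-07), and had −0.62 ± 0.07 in exposed animals. Srp54a, the signal-binding subunit, had −0.56 ± 0.11 (adjusted p = 2.12e-04) and −0.45 ± 0.10, and Srp14 −0.35 ± 0.09 (adjusted p = 0.00687) and −0.17 ± 0.09. The oligosaccharyltransferase, which attaches glycans to proteins in the ER, had 0 of 10 genes called in sham animals, 1 at an unadjusted p under 0.05, and 1 lower in exposed animals (Krtcap2, −0.33 ± 0.12, adjusted p = 0.0434). In sham animals Ddost had −0.17 ± 0.08, Dad1 −0.19 ± 0.11 and Krtcap2 −0.20 ± 0.12.

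Among further ER folding genes 3 of 15 were lower in each comparison, and 1 was higher in sham females. Ero1b, an oxidase that recharges the isomerases, had −0.65 ± 0.13 (adjusted p = 3.67e-04) and −0.67 ± 0.13, and Sdf2l1, a BiP partner, −0.55 ± 0.15 (adjusted p = 0.00981) and −0.48 ± 0.15. Txndc5 had 0.23 ± 0.07 (adjusted p = 0.0231) in sham animals, and Creld2 −0.13 ± 0.13. Of the 13 genes of ER-associated degradation 3 were lower in each comparison and 1 was higher in sham females. Derl3 had −1.45 ± 0.29 (adjusted p = 5.81e-04) and −1.54 ± 0.28, at group means between 5.06 and 18.98 CPM. It is also on the plasma and B cell list, where the plasma cell marker Mzb1 ran from 0.125 to 1.19 CPM over all libraries. The part of such cells in the Derl3 difference was not tested. Derl1 had −0.23 ± 0.07 (adjusted p = 0.0120), Edem2 −0.33 ± 0.11 (adjusted p = 0.0265) and Herpud1 0.01 ± 0.11 in sham animals.

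Among other COPI and p24 genes 3 of 18 were higher and 2 lower in females in each comparison, beside 10.7% and 9.62% of all genes in sham animals. Tmed3, a p24 receptor, ran from 5.99 to 8.57 CPM (median 7.32) in sham females and from 12.8 to 21.3 CPM (median 16.5) in sham males (log2 fold −1.17 ± 0.14, adjusted p = 1.43e-07; −1.12 ± 0.14 in exposed animals). Copz2, a coat subunit, had 0.89 ± 0.13 (adjusted p = 5.87e-06) and 0.88 ± 0.13, and Arfgap3, which promotes uncoating, 0.64 ± 0.09 (adjusted p = 3.03e-06) and 0.43 ± 0.09. Among Golgi tethers 3 of 15 were higher and 1 lower in sham females, with Cog4 at −0.31 ± 0.08 (adjusted p = 0.00263), Rab1a at 0.28 ± 0.07 (adjusted p = 0.00534) and Trip11 at 0.37 ± 0.12 (adjusted p = 0.0228). Of 12 further COPII and SNARE genes 1 was higher in sham females, Tfg (0.26 ± 0.09, adjusted p = 0.0446), and Sec16b (0.16 ± 0.07) and Sec22b (−0.18 ± 0.10) did not pass there.

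In exposed females compared with sham females, 41 of 46 genes had a log2 fold over 0, with a median of 0.11, where 50.7% of all genes did and the median was 0.00. By edgeR 0 of 46 genes passed over all genes, as did 0 of the 10251 tested (0%). Over all genes DESeq2 called 2 higher (0.0271%) and 11 lower (0.149%) and limma-voom 1 lower (0.00976%), none of them among the 46. At an unadjusted p under 0.05, 11 of 46 genes had positive and 0 negative fold changes, against 4.64% of all genes in the positive and 5.32% in the negative direction. These were Ssr1, Ssr3, Spcs3, Uggt1, Hyou1, Hsp90b1, Pdia3, Pdia4, Bet1, Lman1 and Uso1. The prompt for the list came from the male contrast and not from these female libraries. However, the list and the tests were chosen with earlier results of these data known. Group-centred levels in consecutively numbered males and females also correlated (median r = 0.23 in the 46 genes and 0.19 in all genes). The female counts are therefore no independent test.

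Mean library axis scores also differed between sham and exposed animals. They were −2.56 in sham and 2.56 in exposed females, and −2.09 and 2.09 in males, mirrored because scores were centred within sex. Animals 13 to 16 scored from 8.16 to 12.7. The other exposed animals ran from −6.60 to 4.80, inside the sham range of −7.09 to 7.004. With the score as a covariate in the female fit, 4 of 46 genes were at an unadjusted p under 0.05 in the positive direction. Without animals 13 to 16, which scored highest, there were 5, in a female fit with fewer exposed animals. The median log2 fold was then 0.08 and 0.09, with 38 of 46 genes over 0 in both fits. Leaving out a library gave from 7 to 14 genes, the fewest without sham female replicate 2 or 3.

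Bet1 had the highest log2 fold in females. It ran from 37.1 to 57.8 CPM (median 46.3) in sham and from 43.1 to 85.1 CPM (median 71.3) in exposed females, with 5 of 6 exposed libraries above the sham mean. The log2 fold was 0.48 ± 0.16 (adjusted p = 0.392). Ssr1, a subunit beside the Sec61 channel, ran from 68.5 to 94.2 CPM (median 79.1) in sham and from 78.6 to 129 CPM (median 102) in exposed females, a log2 fold of 0.36 ± 0.12 (adjusted p = 0.388). Uggt1 ran from 63.1 to 110 CPM (median 89.9) in sham and from 101 to 118 CPM (median 114) in exposed females, a log2 fold of 0.36 ± 0.11 (adjusted p = 0.388). In each of these 3 genes the groups overlapped, and 0 of 46 genes were free of overlap in females, where 0.156% of all genes were in the higher and 0.234% in the lower direction.

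Uso1 and Ssr3, which with Bet1 prompted the list, also had log2 folds over 0 in females. Uso1 ran from 142 to 171 CPM (median 146) in sham and from 161 to 215 CPM (median 182) in exposed females, with a log2 fold of 0.25 ± 0.09 (adjusted p = 0.410). Ssr3 ran from 94.0 to 131 CPM (median 107) and from 117 to 172 CPM (median 132), with 0.31 ± 0.11 (adjusted p = 0.430). In both genes all 6 exposed libraries lay above the sham mean, though the groups overlapped. Spcs3 had 0.36 ± 0.11, Hyou1 0.34 ± 0.11, Hsp90b1 0.23 ± 0.10, Pdia3 0.21 ± 0.10, Lman1 0.21 ± 0.10 and Pdia4 0.19 ± 0.09.

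Other chaperones and coat genes sat nearer 0 in exposed against sham females. Hspa5 had 0.15 ± 0.12, with 95% limits of −0.09 and 0.39, and Calr 0.08 ± 0.10, Canx 0.18 ± 0.10, Pdia6 0.11 ± 0.09, Dnajc3 0.10 ± 0.08 and Sel1l 0.05 ± 0.09. Sec61a1 had 0.15 ± 0.09, Sec61b 0.04 ± 0.11, Spcs2 0.13 ± 0.10, Sec23a 0.06 ± 0.11, Sec24d 0.14 ± 0.08, Mcfd2 0.02 ± 0.13, Sar1b 0.01 ± 0.08, Copa 0.13 ± 0.07, Kdelr2 0.10 ± 0.08 and Tmed10 0.02 ± 0.08. The lowest values were Sec11a (−0.05 ± 0.10), Dnajb9 (−0.05 ± 0.17) and Ssr4 (−0.04 ± 0.09), and P4hb had −0.00 ± 0.08.

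In males the same contrast is a description, since it chose the list. There 39 of 46 genes had a log2 fold over 0, with a median of 0.12, against 51.0% and a median of 0.00 over all genes, and 0 of 10180 genes passed (0%). Ssr3 ran from 106 to 126 CPM (median 120) in sham and from 132 to 183 CPM (median 139) in exposed males, Uso1 from 143 to 170 CPM (median 156) and from 171 to 225 CPM (median 191), and Bet1 from 37.8 to 45.2 CPM (median 39.8) and from 44.2 to 59.7 CPM (median 49.4). The groups did not overlap in Ssr3, Uso1 and Tmed2, where 0.118% of all genes were free of overlap in the higher direction. Log2 folds were 0.33 for Ssr3, 0.32 for Bet1, 0.30 for Uso1 and 0.30 for Uggt1, and the lowest were Dnajb9 (−0.05), Sec24b (−0.05) and Sec11c (−0.04). Without animals 13 to 16, 38 genes were over 0 with a median of 0.11.

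Chaperones in exposed males stood at 0.15 for Hspa5, 0.25 for Hsp90b1, 0.22 for Hyou1, 0.14 for Calr, 0.13 for Canx, 0.12 for Pdia4, 0.03 for Pdia6, 0.07 for P4hb, 0.14 for Dnajc3 and 0.07 for Sel1l, all as log2 folds. Among the others Sec61a1 had 0.12, Sec61b −0.02, Spcs2 0.12, Sec23a 0.21, Sec24d 0.15, Lman1 0.17, Mcfd2 −0.00, Sar1b 0.14, Copa 0.15, Kdelr2 0.14 and Tmed10 0.03.

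**Figure D3:**
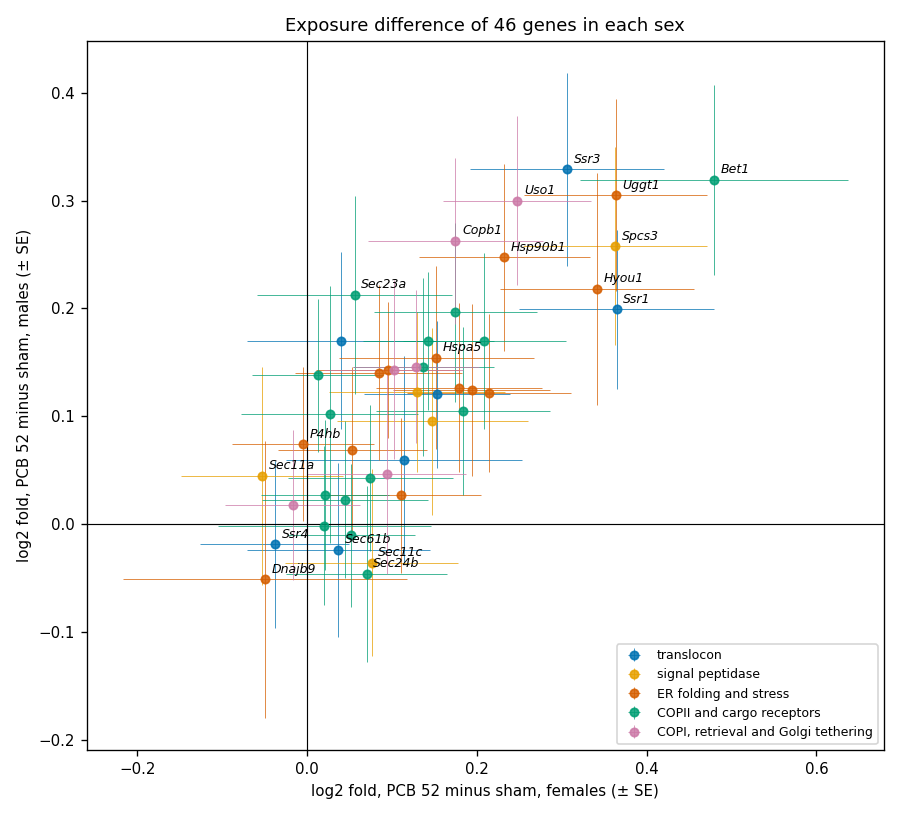
Log2 fold change, PCB 52 minus sham, of the 46 genes in females (horizontal axis) and in males (vertical axis, the contrast that prompted the list), with ± SE bars and colours by role. Bet1, Ssr3, Uggt1 and Uso1 lie at the upper right, and 36 of 46 genes are over 0 in both sexes (41 in females and 39 in males).

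Both sexes had a log2 fold over 0 in 36 of 46 genes (78.3%), against 3456 of 10035 genes tested in both (34.4%), and both were under 0 in 2 of 46. With 41 genes over 0 in females and 39 in males, a large shared count follows from those counts alone. It is not a measure of agreement between the sexes. The female and male animals are separate, but the male direction was used to choose the genes. The difference between the 2 responses passed for 0 of 46 genes by edgeR, with 0 of 46 positive at an unadjusted p under 0.05, and for 0 of 10535 genes (0%). Over all genes 0.940% were positive and 1.33% negative at that unadjusted p. The median difference was 0.00, with 24 of 46 genes over 0. That difference contains the male contrast and is likewise a description.

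Of the 106 genes in the pathway lists, 0 passed in exposed against sham females by edgeR, and 8 in each direction had an unadjusted p under 0.05, against 4.64% of all genes in the positive and 5.32% in the negative direction. Their median log2 fold was 0.03, with 64 over 0. Of the unfolded protein response factors 4 of 10 were over 0, with a median of −0.09. Xbp1 had 0.20 ± 0.17, Atf6 0.24 ± 0.12, Atf4 −0.10 ± 0.10, Ddit3 −0.29 ± 0.12 and Ppp1r15a, which restores translation after stress, −0.41 ± 0.14. Among stress targets Herpud1 had −0.20 ± 0.10, Creld2 0.28 ± 0.14 and Sdf2l1 −0.06 ± 0.17.

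In the other pathway lists the values with the smallest unadjusted p in females went in both directions. Srp54a had 0.34 ± 0.11 and Sil1 −0.16 ± 0.10 in the translocation list, and the oligosaccharyltransferase genes Magt1 and Stt3a had 0.30 ± 0.12 and 0.18 ± 0.08. Dnajc10 had 0.24 ± 0.10 and Erp44 0.18 ± 0.09, while Ube2g2 and Os9 of ER-associated degradation had −0.45 ± 0.11 and −0.24 ± 0.09. Scfd1, which regulates ER-to-Golgi SNAREs, had 0.43 ± 0.15, Preb −0.23 ± 0.10, Copg1 0.24 ± 0.08, Copz1 0.24 ± 0.09 and Cog8 −0.17 ± 0.08.

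The level of the 46 genes also varied by animal number. Numbers 1 to 12 were sham and 13 to 24 exposed, odd numbers male and even numbers female, so number and exposure cannot be told apart. The mean log2 deviation of the 46 genes from the sham mean of the same sex ran from −0.10 to 0.10 in sham females, −0.03 to 0.03 in sham males, 0.04 to 0.21 in exposed females and 0.06 to 0.25 in exposed males. Sham values centre on 0 by construction. Exposed male values belong to the contrast that chose the list, so they are a description. Animal 15 was highest (0.25, with 43 of 46 genes above the sham mean), followed by animal 14 (0.21), animal 16 (0.20) and animal 24 (0.19). Animal 13 stood at 0.10, animals 17 to 21 at 0.07, 0.06, 0.08, 0.04 and 0.06, and animals 22 and 23 at 0.12 and 0.16. Sham animal 12 stood at 0.10, above 6 of the 12 exposed animals.

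**Figure D4:**
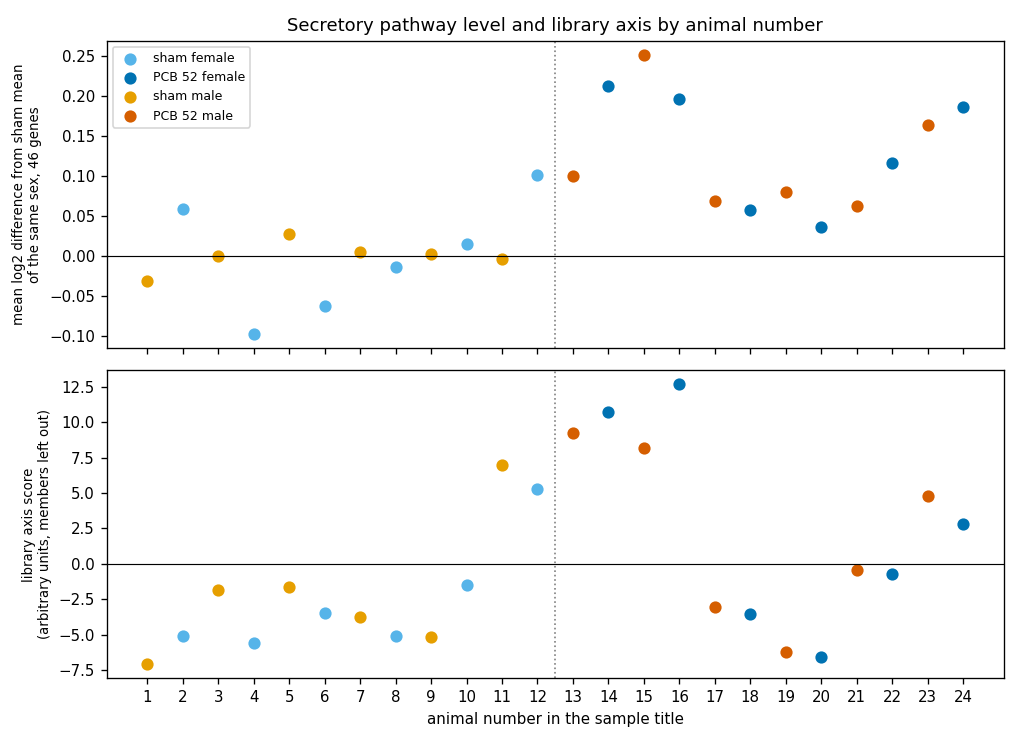
Upper panel: mean log2 difference of the 46 genes from the sham mean of the same sex, by animal number. Lower panel: library axis score (arbitrary units, the 46 genes left out), by animal number, with the dotted line between sham and exposed animals. Animals 13 to 16 are high in the lower panel, and 14 to 16 are high in both. Exposed male values in the upper panel belong to the contrast that prompted the list.

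Neighbouring animal numbers had similar scores on the library axis. Animals 13 to 16 scored 9.199, 10.7, 8.16 and 12.7, sham animals 11 and 12 scored 7.004 and 5.29, and animals 19 and 20 scored −6.20 and −6.60. Across the 24 libraries, with group means removed, the median correlation of the 46 genes with the score was r = 0.31, against 0.01 for all genes, all computed from the same libraries. Canx (r = 0.89, rho = 0.84), Uso1 (r = 0.85, rho = 0.86) and Copb1 (r = 0.81, rho = 0.81) ran most closely with it, and Ssr4 ran against it (r = −0.61, rho = −0.55). Hspa5 had r = 0.51, Sec61a1 −0.02, Calr −0.23 and P4hb −0.27, so the genes did not share 1 relation to the axis.

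Some genes also varied together in consecutively numbered males and females. Over the 12 such pairs the group-centred levels correlated with a median r of 0.23 in the 46 genes and 0.19 in all genes. Canx (0.80), Copb2 (0.75), Copb1 (0.73) and Uso1 (0.65) were highest, and Calr (−0.51) and Sar1a (−0.41) lowest. The labels give no pairing of animals.

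Among themselves the 46 genes varied together weakly, and ER folding genes more so. With group means removed, the median pairwise r over 24 libraries was 0.17 for the 46 genes and −0.00 for all genes. It was 0.39 for the 78 pairs of ER folding genes (0.40 in females, 0.43 in males, and 0.32 without animals 13 to 16), 0.47 for the 10 pairs of the genes with an ERSE, and also 0.47 for the 40 pairs of those genes with the other ER folding genes. The 21 translocon pairs had 0.39, but 0.41 in females and 0.03 in males. COPII (0.14) and COPI pairs (0.13) were lower. These values describe these libraries only, and the cause of the correlations was not tested.

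Single pairs stood out in both directions. Bet1 with Sar1a (r = 0.82), Ssr3 with Bet1 (0.82), Uso1 with Canx (0.81), Pdia3 with Pdia4 (0.81) and Calr with Pdia6 (0.80) were the highest of the pairs, over 24 libraries. Hspa5 with Hsp90b1 had 0.75. Pdia3 and Pdia4 varied together although their sex differences had opposite signs. The lowest were Ssr4 with Sec23a (−0.72) and Spcs2 with Sec31a (−0.72), the latter −0.84 in females and −0.37 in males.

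**Figure D5:**
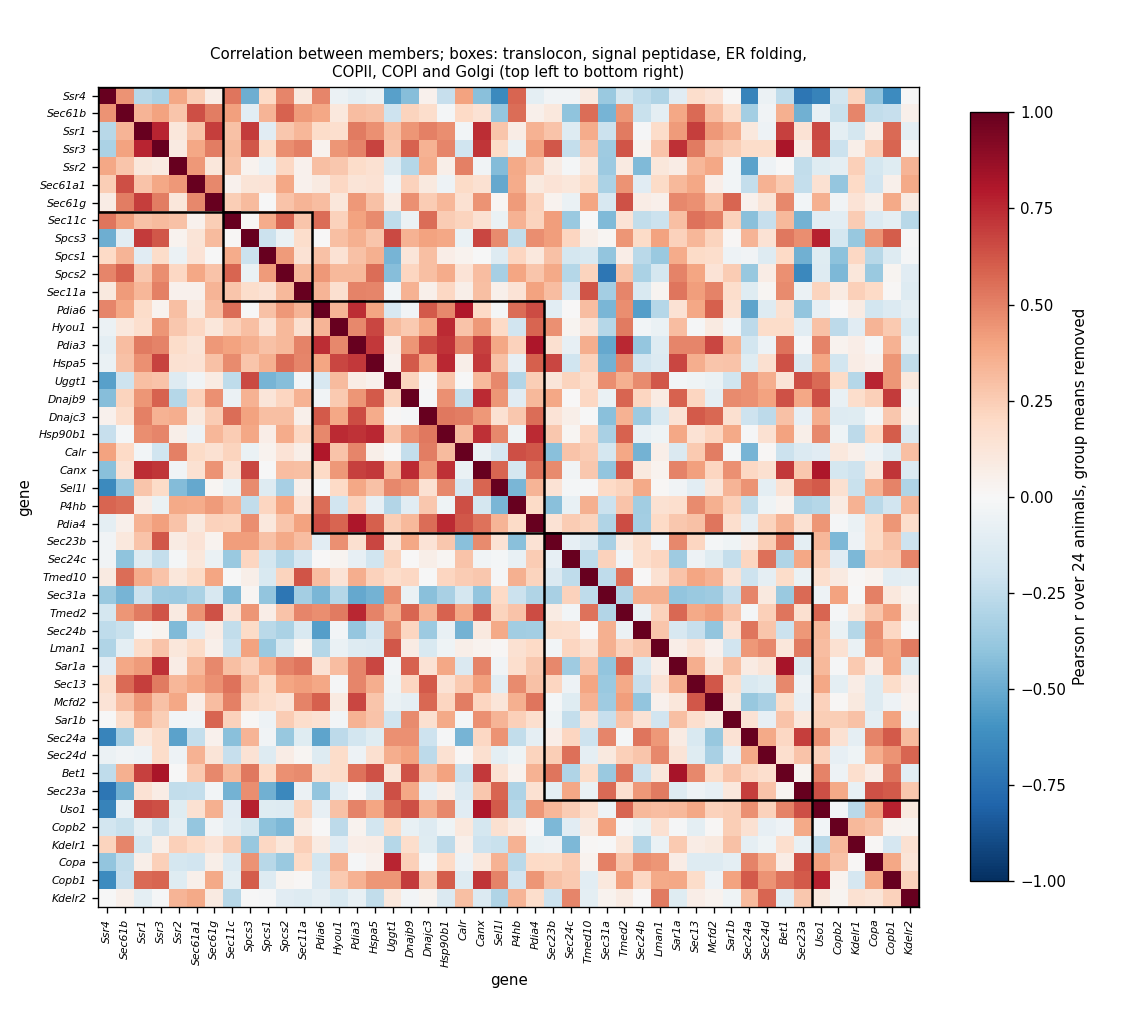
Pearson correlation between the 46 genes over 24 libraries after group means were removed (colour scale from −1 to 1), ordered by role, with boxes around the roles. The ER folding box is mostly red, with a median r of 0.39, and Ssr4 runs blue against Sec23a and Uso1.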

How the data were processed

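Liver RNA of 24 rats was sequenced, with 1 library per animal. The values are gene counts per Entrez ID, deposited by the authors without normalization in 1 table per sex. Per the submitters' processing notes, FastQC, HISAT2 and rn6 were used. How reads were counted, with which strand setting and annotation, is not given in the sources used here, so overlapping or antisense genes cannot be told apart. The labels' protocol names poly(A) capture and rRNA removal as alternatives. Of 15319 IDs, 15230 matched a symbol in RefSeq tables of GRCr8, which also gave the promoter sequences (39 of 46 genes).

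Counts were tested with edgeR 4.0.16 in R 4.3.3 (TMM factors, filterByExpr with a minimum count of 10 and total of 15, robust quasi-likelihood fit, Benjamini-Hochberg adjustment over all genes, threshold 0.05). The female and male exposure contrasts were fitted in 12 libraries each, and the sex contrasts and the difference between responses in 1 fit of 24. CPM are counts scaled to a TMM-normalized library total of 1000000, and log2 CPM used a prior count of 2. Alternatives were RLE factors, no filter, DESeq2 1.42.0, limma-voom (limma 3.58.1), the library axis score, a block for consecutive animals, all 24 libraries in 1 fit, and fits without animals 13 to 16 or without each library. For the library axis, the first principal component of group-centred log2 CPM was taken without the 46 genes, and each sex was scored by weights fitted in the other sex. Scripts were tested on simulated counts.

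The 46 genes, the lists and the tests were chosen with earlier results of these data known. Named with values were genes called in both sex contrasts, the 3 highest and lowest in each exposure contrast, 26 preset genes, and of each list up to 3 genes by smallest p in sham animals and 2 in females, plus 7 preset stress genes. Other genes called once were added after their values were seen. Replicates are separate animals numbered in accession order. A library of 6994832 counts gives 0.143 CPM per count before TMM scaling and 1 of 9185511 gives 0.109.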

Additional observations from a re-analysis of the deposited data

Results flagged for a closer look

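Of the 184 sets of 6 libraries (46 genes in 4 groups), 12 held a library far from the other 5, with its gap to the nearest of them, as a share of the group's range, over Dixon's 95% critical value. Chance flags about 1 set in 20. In sham female replicate 1, Ssr4 (102 CPM) and Spcs2 (105 CPM) were high, and Sec24a (72.6 CPM) and Sec31a (70.9 CPM) were low. In sham male replicate 5, Sec11a was high (55.1 CPM) and Kdelr2 low (56.5 CPM). In PCB 52 male replicate 2, Uggt1 (156 CPM) and Copa (197 CPM) were high, and in PCB 52 male replicate 1, Sec61g was low (30.6 CPM). Lman1 was high in PCB 52 female replicate 6 (147 CPM), Hspa5 in PCB 52 female replicate 1 (859 CPM) and Hsp90b1 in sham female replicate 6 (704 CPM).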

How the results depend on the processing

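In exposed against sham females, the count of genes positive at an unadjusted p under 0.05 went from 11 to 4 with the library axis covariate and to 5 without animals 13 to 16, and ran from 7 to 14 with a library left out. No gene of the 46 passed over all genes by edgeR, DESeq2 or limma-voom in any exposure fit. In sham animals the 15 sex calls became 25 with limma-voom and ran from 11 to 19 with a library left out. In exposed animals the 11 became 7 to 14, with 7 without PCB 52 male replicate 3, 4 or 6 or PCB 52 female replicate 6; the cause was not tested. Single called genes kept direction and threshold in 238 alternative fits and lost the threshold in 32 in sham animals (169 and 40 in exposed animals), and no direction turned. Replicate numbers follow accession order and pair no animals. With consecutive animals as a block, an arrangement the labels do not give, 20 and 14 genes were called in sham and exposed animals. The lowest count of any of the 46 genes in a library was 139, for Spcs1.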
